A study of Mus musculus with 8 samples.

Results

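The genes described here are the glucocorticoid receptor Nr3c1, the chaperones and immunophilins that hold it in the cytoplasm, and coregulators that it binds on DNA, measured in whole blood of mice exposed to repeated restraint stress (RST). Of 10 listed genes, Nr3c1, Fkbp5, Fkbp4, Hsp90aa1, Hsp90ab1, Ptges3, Stip1, Ncoa1, Ncoa2 and Ncor1, 7 had at least 1 probe set assigned to that gene alone in the platform annotation, of 18194 genes on the array with such a probe set. Those 7 genes were covered by 25 probe sets. A probe set is a group of short oligonucleotides on the array that together report 1 transcript or a set of related transcripts. Hsp90ab1, Ptges3 and Ncor1 are not analysed here, since no probe set used here named any of them alone.

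RST mice were female C57BL/6J mice, labelled as 6 to 8 weeks of age, and spent 6 h of each day in a ventilated tube until blood was taken on Day 7 (n = 4). Control mice were of the same sex, strain and age and were not handled, and their food and water were taken away while the RST mice were restrained (n = 4). Each array held RNA from the blood of 1 mouse. Whole blood mixes reticulocytes, platelets and all classes of leukocyte, so that fewer cells of a type and less RNA per cell cannot be told apart in these values.

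Glucocorticoids released by the adrenal cortex during stress enter the cell and bind the receptor encoded by Nr3c1. Without hormone the receptor sits in a complex with HSP90, into which it is loaded by HSP70 and the adaptor encoded by Stip1, and which carries an immunophilin. In the usual account FKBP51, the product of Fkbp5, keeps hormone affinity low, and FKBP52, the product of Fkbp4, links the complex to dynein and eases entry into the nucleus. On DNA the receptor recruits p160 coactivators such as those encoded by Ncoa1 and Ncoa2, or corepressors. Fkbp5 is itself induced by glucocorticoids in many cell types, which closes a short negative feedback loop on the receptor.

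All values are log2 RMA signals as deposited, and a log2 fold change is the RST mean minus the control mean on that scale. A probe set was tested where it lay above the median of its array in at least 2 of the 4 arrays of a group, which left 25084 probe sets. The arrays were not level with each other. The 75th percentile of signal was 5.06, 5.19, 5.11 and 4.50 in RST mice 1 to 4, against 5.37, 5.36, 5.13 and 5.14 in control mice 1 to 4, so that RST mouse 4 was dimmer than the other 7. Spiked hybridization controls averaged 12.71, 12.35, 12.73 and 12.71 in RST mice, against 11.93, 11.90, 12.74 and 12.60 in control mice, so control mice 1 and 2 were low on that measure. Across all tested probe sets the median log2 fold change was −0.20 and 65.3% had a lower mean in RST, and each change below is to be read against that shift. Values without RST mouse 4, and after each array was set to the same median, are therefore given beside each tested member. Setting the medians equal takes 1 value off each array, so it moves every log2 fold change up by the same amount. Its effect is not particular to any probe set.

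No transcript of the receptor complex passed the threshold, an adjusted p below 0.05 with a fold change above 1.5 by limma with Benjamini-Hochberg adjustment over all tested probe sets. Of the 25 probe sets, 19 were tested and 0 were called, where 0% of all tested probe sets were called. At an unadjusted p below 0.05 the same fit picked 0 of the 19, where 13.6% of all tested probe sets passed, and the unmoderated analysis of variance also picked 0 of the 19. The smallest unadjusted limma p among the 19 was 0.098 and the smallest adjusted p was 0.42. The RST and control values overlapped in all 19, where 7.99% of all tested probe sets had groups that did not overlap. The mean was lower in RST for 17 of the 19 and higher for 2, with a median log2 fold change of −0.29. Without RST mouse 4 it was lower for 12 and higher for 7, with a median of −0.10, and with arrays set to the same median it was lower for 10 and higher for 9. A fold change above 1.5 was reached by 4 of the 19, where 26.1% of all tested probe sets reached it.

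**Figure D1:**
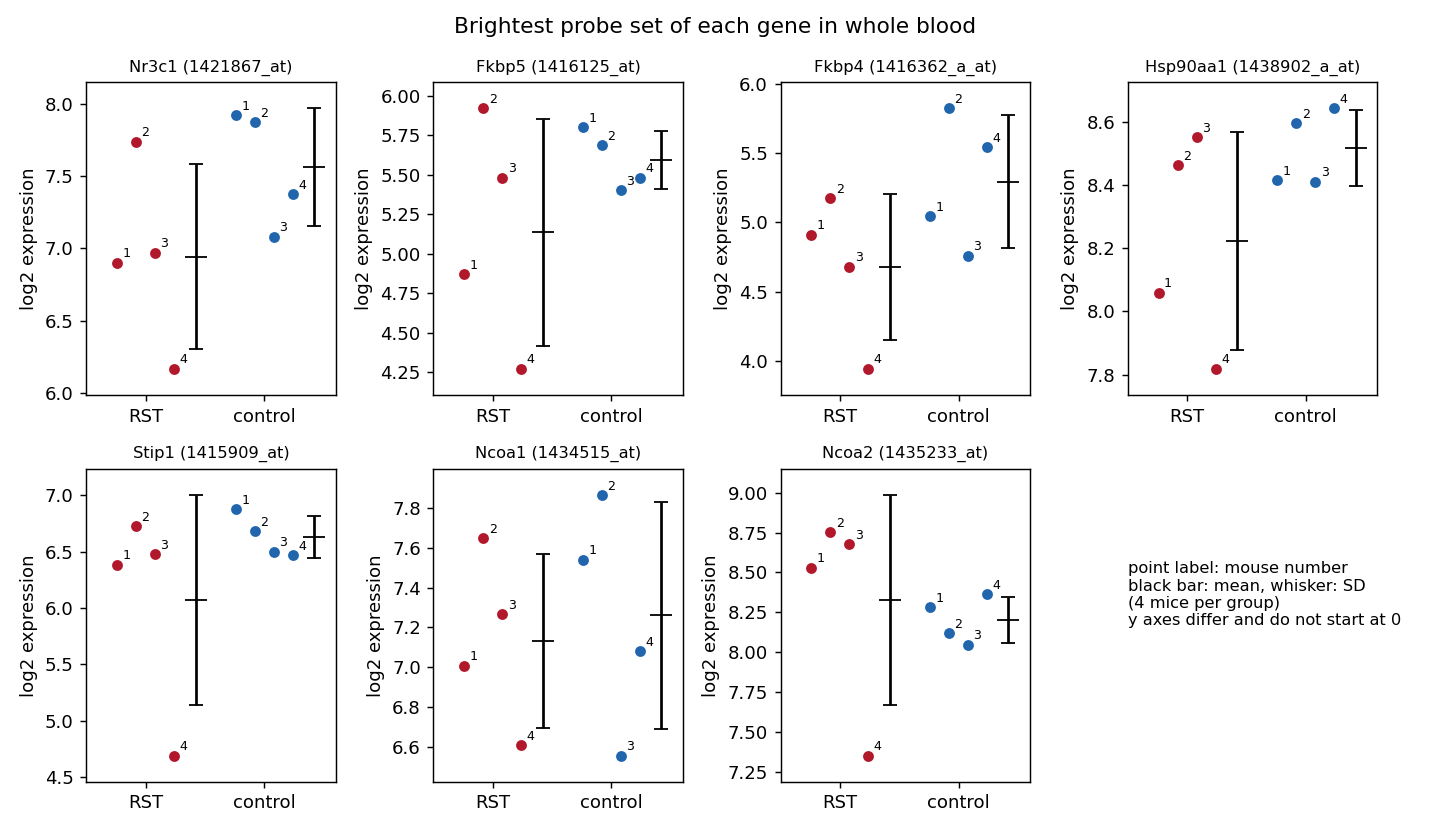
Log2 RMA signal (vertical axis) of the brightest probe set of each of the 7 measured genes, with 1 point per mouse, RST mice left of control mice, and the mean with its SD beside the points. The groups overlap for every gene, and RST mouse 4 is the lowest point for most of them.

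Nr3c1 encodes the receptor itself and had 6 probe sets, all of which were tested. The brightest, 1421867_at, read 6.90, 7.74, 6.97 and 6.17 in RST mice 1 to 4, against 7.92, 7.87, 7.08 and 7.37 in control mice 1 to 4. RST mice 1, 3 and 4 lay below every control mouse, while RST mouse 2 lay among them. The means were 6.94 ± 0.64 in RST and 7.56 ± 0.41 in control (SD, n = 4 each), a log2 fold change of −0.62 with an SE of 0.35 and a 95% interval of −1.39 to 0.16. The difference did not pass the test (limma adjusted p = 0.44; exact two-sided permutation p = 0.14, where 0.029 is the smallest that 4 against 4 mice allow). It was −0.36 without RST mouse 4, −0.28 without control mice 1 and 2, and −0.35 with arrays set to the same median.

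A pair of further Nr3c1 probe sets had similar differences. The values of 1460303_at were 6.84, 7.51, 7.11 and 5.29 in RST mice, against 7.42, 7.78, 7.11 and 7.09 in control mice. RST mouse 4 stood 1.54 below the next RST mouse RST mouse 1 was just below the controls, and the others lay among them. The log2 fold change was −0.66 with an SE of 0.43 (limma adjusted p = 0.48), −0.20 without RST mouse 4 and −0.40 with arrays set to the same median. The probe set 1457635_s_at, whose suffix marks probes shared by more than 1 transcript, read 5.85, 6.46, 6.24 and 4.36 in RST mice, against 6.71, 6.82, 5.80 and 5.88 in control mice. Here too RST mouse 4 was the lowest of the 8, and RST mice 2 and 3 exceeded control mice 3 and 4. The log2 fold change was −0.58 with an SE of 0.45 (limma adjusted p = 0.56), −0.12 without RST mouse 4 and −0.31 with arrays set to the same median.

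The 3 dimmer Nr3c1 probe sets were mixed: the mean of 1 was lower in RST by a similar amount, that of 1 was nearly level between the groups and that of 1 was higher in RST. The values of 1421866_at were 4.21, 3.86, 4.85 and 3.91 in RST mice, against 4.59, 3.99, 4.03 and 4.29 in control mice, and the log2 fold change was −0.018 with an SE of 0.30, turning to 0.081 without RST mouse 4 and 0.25 with arrays set to the same median. The highest of the 8 was RST mouse 3 and the lowest RST mouse 2. The values of 1453860_s_at were 3.08, 4.36, 3.59 and 3.17 in RST mice, against 3.81, 5.02, 3.42 and 3.68 in control mice, and it lay above the array median in only 2 RST and 3 control arrays. Mice of both groups were interleaved, with control mouse 2 the highest (log2 fold change −0.43, SE 0.40, limma adjusted p = 0.63). It was −0.30 without RST mouse 4 and −0.16 with arrays set to the same median. The remaining probe set, 1431378_at, read 4.14, 3.68, 3.87 and 3.48 in RST mice, against 3.13, 3.37, 3.56 and 3.65 in control mice, so that RST mice 1 to 3 exceeded all controls. Its log2 fold change was 0.37 with an SE of 0.26 and a 95% interval of −0.20 to 0.93 (limma adjusted p = 0.52, exact permutation p = 0.11). It was 0.47 without RST mouse 4, and with arrays set to the same median 0.63, with an unadjusted limma p of 0.032 and an adjusted p of 0.32. Other alternatives made it smaller: 0.19 without control mice 1 and 2 and 0.22 with the hybridization controls as a covariate. With the Affymetrix control probe sets set equal across arrays it was 0.16. Its signal was low, above the array median in 4 RST and 3 control arrays.

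**Figure D2:**
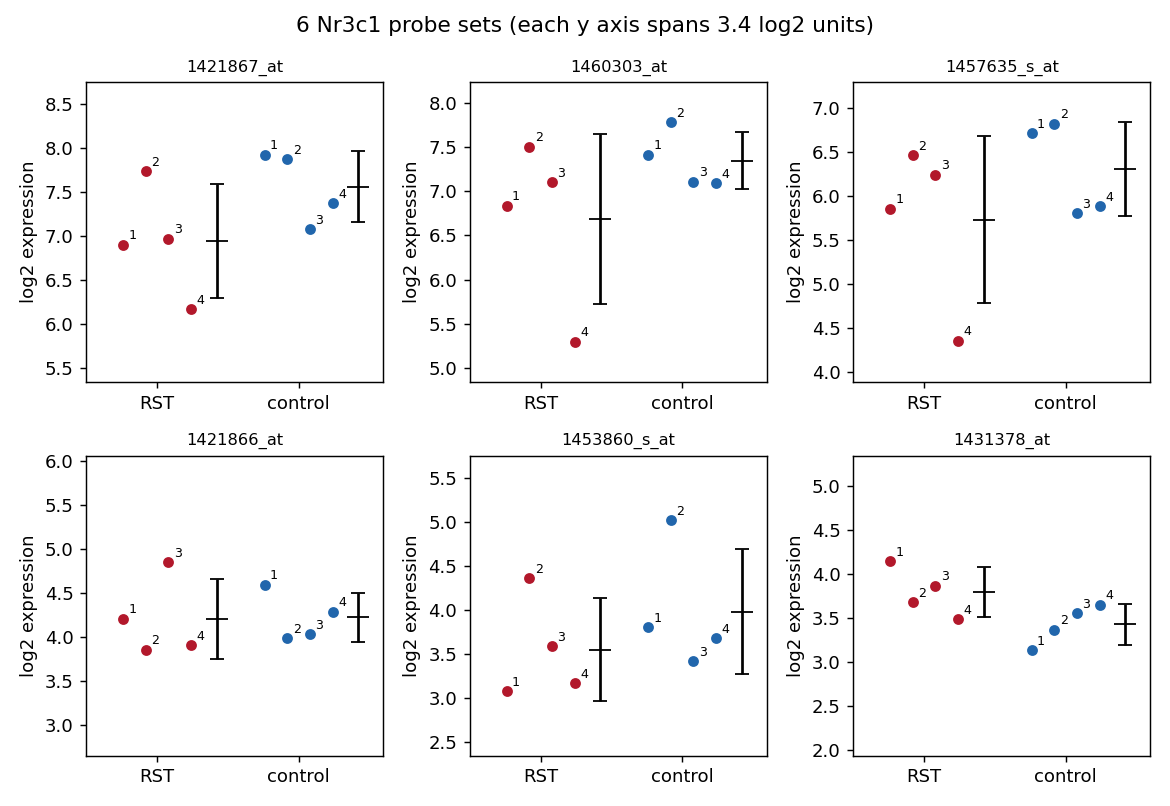
Log2 RMA signal (vertical axis) of each of the 6 Nr3c1 probe sets, with 1 point per mouse, RST mice left of control mice, and the mean with its SD. The 3 brightest probe sets have lower means in RST, with RST mouse 4 lowest, and 1431378_at has the higher mean in RST.

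Whether probe sets of 1 gene differed in their response was tested on the difference between each tested probe set and the brightest of its gene within the same mouse. For 1431378_at minus 1421867_at this difference was −2.76, −4.06, −3.10 and −2.68 in RST mice, against −4.79, −4.50, −3.52 and −3.72 in control mice. RST mice 1, 3 and 4 lay above all controls and RST mouse 2 among them, and the log2 fold changes of both probe sets differed by 0.98 (exact permutation p = 0.086). The lowest values were those of control mice 1 and 2, the arrays low on hybridization controls. Without these mice the log2 fold changes lay closer together, at 0.19 for 1431378_at and −0.28 for 1421867_at. The permutation p of 0.086 was the smallest of the 12 such comparisons over the 7 genes, none of which had groups that did not overlap. The positions of these probe sets within the Nr3c1 transcripts were not used here.

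Fkbp5, the glucocorticoid-induced immunophilin, had 3 probe sets, of which 1 was tested. The values of 1416125_at were 4.87, 5.92, 5.48 and 4.27 in RST mice, against 5.80, 5.69, 5.40 and 5.48 in control mice. RST mouse 2 was the highest of the 8 and RST mouse 4 the lowest, with the 4 control values between them. The means were 5.13 ± 0.72 in RST and 5.59 ± 0.18 in control (SD, n = 4 each), a log2 fold change of −0.46 with an SE of 0.35 and a 95% interval of −1.22 to 0.31 (limma adjusted p = 0.55, exact permutation p = 0.34). Without RST mouse 4 it was −0.17, and with arrays set to the same median −0.19. The other Fkbp5 probe sets lay below the array median on all 8 arrays: 1447736_at read 2.18 to 2.44 in RST and 2.20 to 2.69 in control mice, and 1448231_at read 2.09 to 2.30 in RST and 1.92 to 2.25 in control mice.

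Fkbp4, whose product competes with FKBP51 for the same site on HSP90, had 3 probe sets, of which 2 were tested. The brighter, 1416362_a_at, read 4.91, 5.17, 4.68 and 3.94 in RST mice, against 5.04, 5.82, 4.76 and 5.55 in control mice. All 4 RST values lay below the control mean, and the groups overlapped. The means were 4.68 ± 0.53 in RST and 5.29 ± 0.48 in control (SD, n = 4 each), a log2 fold change of −0.62 with an SE of 0.34 (limma adjusted p = 0.42, exact permutation p = 0.17). It was −0.37 without RST mouse 4 and −0.35 with arrays set to the same median. The dimmer 1416363_at read 4.09, 3.77, 4.04 and 3.24 in RST mice, against 4.17, 3.69, 3.82 and 3.98 in control mice, and only RST mouse 4 lay apart (log2 fold change −0.13, SE 0.27). The sign turned without RST mouse 4 (0.055) and with arrays set to the same median (0.14). The remaining probe set, 1459808_at, lay below the array median on all 8 arrays, at 1.43 to 1.62 in RST and 1.57 to 2.04 in control mice.

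Hsp90aa1 encodes the inducible cytosolic HSP90, which folds the receptor into its hormone-binding form, and had 5 probe sets, 3 of them tested. The brightest, 1438902_a_at, read 8.06, 8.46, 8.55 and 7.82 in RST mice, against 8.42, 8.60, 8.41 and 8.64 in control mice. The 4 control mice lay within 0.23 of each other, and RST mice 1 and 4 lay below them. The log2 fold change was −0.29 with an SE of 0.26 and a 95% interval of −0.86 to 0.28 (limma adjusted p = 0.61, exact permutation p = 0.23). It was −0.16 without RST mouse 4 and −0.029 with arrays set to the same median. The values of 1426645_at were 8.04, 8.46, 7.73 and 7.75 in RST mice, against 8.27, 8.26, 7.44 and 8.43 in control mice, with control mouse 3 the lowest of the 8. The values of 1437497_a_at were 7.85, 8.38, 7.82 and 7.15 in RST mice, against 8.31, 8.16, 7.48 and 8.20 in control mice, and RST mouse 2 was the highest and RST mouse 4 the lowest. Their log2 fold changes were −0.10 (SE 0.30) and −0.24 (SE 0.32), which became −0.021 and −0.024 without RST mouse 4, and both were positive, 0.16 and 0.024, with arrays set to the same median. The remaining probe sets, 1433251_at and 1441827_x_at, lay below the array median on all 8 arrays.

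Stip1 encodes HOP, the adaptor that passes the receptor from HSP70 to HSP90, and had 1 probe set. It read 6.38, 6.73, 6.48 and 4.69 in RST mice, against 6.87, 6.68, 6.50 and 6.47 in control mice. RST mouse 4 lay 1.696 below the next RST mouse, and the other 3 RST mice were within the spread of the controls or just below it. The means were 6.07 ± 0.93 in RST and 6.63 ± 0.19 in control (SD, n = 4 each), a log2 fold change of −0.56 with an SE of 0.41 (limma adjusted p = 0.53, exact permutation p = 0.26). It was −0.10 without RST mouse 4 and −0.30 with arrays set to the same median.

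Ncoa1, which encodes the p160 coactivator SRC-1, had 3 probe sets, of which 2 were tested. The brightest, 1434515_at, read 7.01, 7.65, 7.27 and 6.61 in RST mice, against 7.54, 7.87, 6.56 and 7.08 in control mice. Mice of both groups were interleaved, and the log2 fold change of −0.13 (SE 0.34, 95% interval −0.88 to 0.62, limma adjusted p = 0.88) was positive with arrays set to the same median (0.14) and without RST mouse 4 (0.046). The other tested probe set, 1418594_a_at, read 5.94, 6.59, 5.18 and 4.57 in RST mice, against 6.83, 6.16, 5.97 and 5.88 in control mice. RST mice 3 and 4 lay below all controls, and the log2 fold change was −0.64 with an SE of 0.42 (limma adjusted p = 0.49). It was −0.31 without RST mouse 4 and −0.37 with arrays set to the same median. The response of this probe set differed from that of the brightest by −0.51 (exact permutation p = 0.23). The remaining one, 1443397_at, did not exceed the array median on any array.

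Ncoa2, which encodes GRIP1, a p160 protein that serves the receptor as coactivator or corepressor, had 4 probe sets, all tested, and was the only gene of the 7 whose brightest probe set had a higher mean in RST, although Ncoa1 joined it with arrays set to the same median and neither was higher with the Affymetrix control probe sets set equal. The values of 1435233_at were 8.53, 8.75, 8.68 and 7.35 in RST mice, against 8.28, 8.12, 8.05 and 8.36 in control mice. RST mice 1 to 3 lay above all 4 controls and RST mouse 4 lay below all of them. The means were 8.33 ± 0.66 in RST and 8.20 ± 0.15 in control (SD, n = 4 each), a log2 fold change of 0.12 with an SE of 0.33 and a 95% interval of −0.60 to 0.85 (limma adjusted p = 0.88, exact permutation p = 0.77). Without RST mouse 4 it was 0.45 (limma adjusted p = 0.48), with arrays set to the same median it was 0.39, and with the Affymetrix control probe sets set equal across arrays it was −0.079. A second probe set, 1435234_at, read 6.36, 6.29, 4.81 and 3.87 in RST mice, against 6.09, 6.10, 5.05 and 5.71 in control mice, and its log2 fold change was −0.41 with an SE of 0.52. Without RST mouse 4 the sign turned, to 0.080, and with arrays set to the same median the value was −0.14. RST mice 1 and 2 were above all controls on it and RST mice 3 and 4 below all of them. The others, 1446827_at and 1450458_at, ranged over 3.46 to 4.50 in RST and 3.68 to 4.06 in control mice, with log2 fold changes of −0.048 and −0.15. Those were 0.085 and −0.15 without RST mouse 4, and 0.22 and 0.11 with arrays set to the same median.

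**Figure D3:**
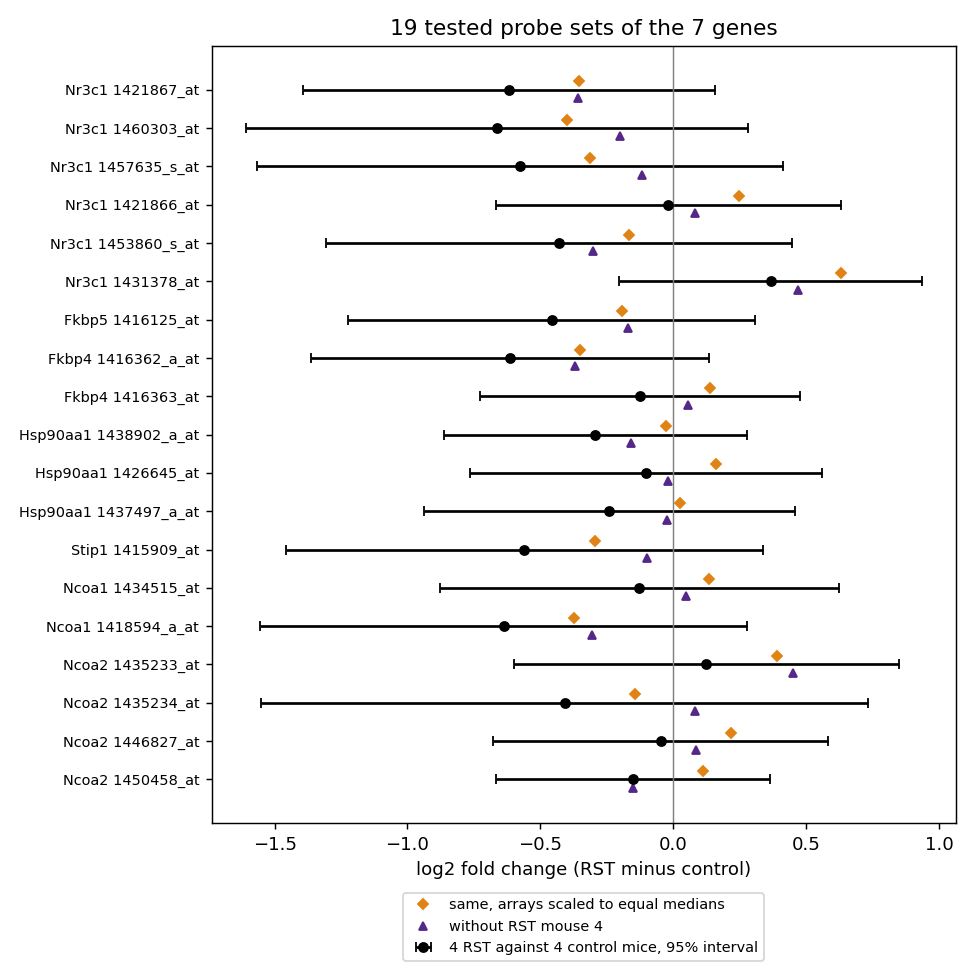
Log2 fold change, RST minus control (horizontal axis), of each of the 19 tested probe sets with its 95% interval from limma, beside the values without RST mouse 4 and with arrays set to the same median. Every interval includes 0. Setting arrays to the same median moves all values up by the same amount. Without RST mouse 4, most negative values move toward 0.

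The members varied more between RST mice than between controls. RST mouse 4 had the lowest of the 8 values for 13 of these 19 transcripts (68.42%), where it was the lowest in 41.5% of all tested probe sets. Measured from the mean of each probe set over the 8 mice, the median deviation of the 19 was −0.011, 0.45, 0.069 and −0.77 in RST mice 1 to 4, against 0.34, 0.27, −0.18 and 0.12 in control mice 1 to 4. Over all tested probe sets the same medians were −0.0016, 0.088, 0.022 and −0.42 in RST mice, against 0.19, 0.17, 0.0078 and 0.045 in control mice. RST mouse 4 was lowest by both measures, while the highest was RST mouse 2 over the members and control mouse 1 over all tested probe sets. The SD was larger in RST than in control for 16 of the 19 (84.21%), against 58.07% of all tested probe sets. Without RST mouse 4 it was larger in RST for 10 of the 19 (52.63%), against 43.88% of all tested probe sets.

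**Figure D4:**
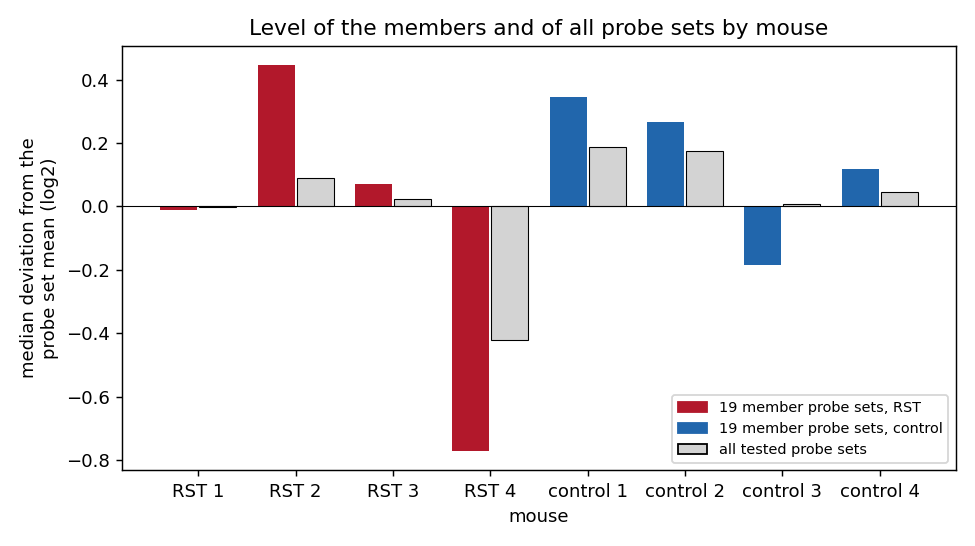
Median deviation of the tested member probe sets in each mouse, in log2 units (vertical axis), RST mice left of control mice. Deviations were taken from the mean of each probe set over the 8 mice. Grey bars give the same median over all tested probe sets. RST mouse 4 has the lowest median by both measures, and RST mouse 2 lies above the other RST mice.

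Other chaperones and cochaperones, among them the HSP90 relatives Hsp90b1 and Trap1 from outside the cytosol, were counted gene by gene at the brightest probe set. By that count 15.6% of 11762 tested genes passed the unadjusted rule (an unadjusted p below 0.05 with a fold change above 1.5), 12.8% with lower and 2.8% with higher values in RST. Of those genes 67.6% had a lower mean in RST and 8.94% had groups that did not overlap. Of 20 tested genes, 15 had a lower mean in RST and 5 a higher one, with a median log2 fold change of −0.48 (−0.28 without RST mouse 4), against −0.24 over all tested genes, and with arrays set to the same median 12 were lower and 8 higher. The unadjusted rule was passed by 4 with lower and 1 with higher values in RST, and 0 were called. Groups did not overlap for 5 of the 20, all with lower values in RST. St13, the HSP70-interacting protein HIP of early receptor assembly, read 6.69, 7.26, 6.90 and 5.96 in RST mice, against 7.71, 7.88, 7.65 and 7.57 in control mice. All 4 RST mice lay below all controls, with a log2 fold change of −0.9997 (SE 0.30, limma adjusted p = 0.32) and −0.75 without RST mouse 4. Sugt1, an HSP90 cochaperone, also had groups that did not overlap (log2 fold change −1.06, SE 0.36, limma adjusted p = 0.32). The 1 gene on the higher side, named after its values were seen, was the inducible HSP70 gene Hspa1b, with 6.86, 8.31, 7.53 and 6.73 in RST mice, against 5.80, 6.19, 5.23 and 7.34 in control mice. RST mice 2 and 3 exceeded all controls and the log2 fold change was 1.22 (SE 0.47, limma adjusted p = 0.33). Another HSP70 gene, Hspa8, also named after its values were seen, went the other way, with all 4 RST mice below all controls. Its log2 fold change was −0.65 (SE 0.25, limma adjusted p = 0.33), and −0.69 without RST mouse 4.

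Of the listed nuclear import carriers and pore proteins, 11 were tested, 10 had a lower mean in RST (7 with arrays set to the same median), and the median log2 fold change was −0.59. That median was −0.32 without RST mouse 4, and also −0.32 with arrays set to the same median. None was called. The importin alpha gene Kpna3 had a log2 fold change of −1.02 (SE 0.36) and Kpna1, another importin alpha gene, one of 0.60 (SE 0.27), with limma adjusted p-values of 0.32 and 0.36. For Kpna3, 3 of 4 RST mice lay below all controls, and for Kpna1, 2 of 4 lay above all controls.

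Of 21 other coactivator genes tested, 16 had a lower and 5 a higher mean in RST, with a median log2 fold change of −0.23 that lay close to that of all tested genes. The median was −0.090 without RST mouse 4, and with arrays set to the same median 10 were lower and 11 higher. The unadjusted rule was passed by 2 with lower and 1 with higher values in RST, where 15.6% of tested genes passed, and 0 were called. Groups did not overlap for 2 with lower and 2 with higher values, where 8.94% of tested genes had no overlap. The 2 coactivator genes with the smallest limma p, Carm1 and Ncoa3, are described here. Carm1, the arginine methyltransferase that p160 proteins bring to DNA, read 9.10, 9.42, 9.04 and 8.87 in RST mice, against 8.00, 7.79, 8.24 and 8.44 in control mice. All 4 RST mice lay above all controls, with a log2 fold change of 0.99 (SE 0.26, limma adjusted p = 0.32). Ncoa3, the p160 relative of Ncoa1 and Ncoa2, read 8.20, 8.67, 8.51 and 8.61 in RST mice, against 9.47, 9.51, 8.78 and 8.94 in control mice. All 4 RST mice lay below all controls, and RST mouse 4 was not the lowest of them (log2 fold change −0.68, SE 0.27, limma adjusted p = 0.34). Of 11 other corepressor genes tested, all 11 had a lower mean in RST (8 with arrays set to the same median or quantile-normalized), with a median log2 fold change of −0.63 that was −0.32 without RST mouse 4. The unadjusted rule was passed by 3 of them and 0 were called. The histone deacetylase gene Hdac2 had 5.27, 5.64, 4.96 and 5.21 in RST mice, against 6.41, 5.99, 5.89 and 6.04 in control mice. Its groups did not overlap (log2 fold change −0.81, SE 0.26, limma adjusted p = 0.32), nor did those of Hdac1 (−0.95, SE 0.38, limma adjusted p = 0.34, and −0.55 without RST mouse 4).

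Genes that handle the hormone were mostly below the filter, and 3 of 8 were tested. Hsd11b1, the enzyme that regenerates active corticosterone inside cells, read 6.01, 6.61, 6.50 and 5.43 in RST mice, against 7.36, 6.68, 6.48 and 6.73 in control mice. The groups overlapped through RST mice 2 and 3 and control mouse 3 (log2 fold change −0.68, SE 0.33, limma adjusted p = 0.38). H6pd, which supplies its cofactor, had a log2 fold change of −0.60 (SE 0.39, limma adjusted p = 0.48). These were −0.44 for Hsd11b1 and −0.29 for H6pd without RST mouse 4.

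Known transcriptional targets give a readout of receptor activity in many tissues, and 25 glucocorticoid-induced genes were tested beside Fkbp5. Of them, 18 had a lower and 7 a higher mean in RST, with a median log2 fold change of −0.29 against −0.24 over all tested genes. The median was −0.15 without RST mouse 4, and with arrays set to the same median 13 were lower and 12 higher. The unadjusted rule was passed by 2 with lower and 1 with higher values in RST, which is 3 of 25 where 15.6% of tested genes passed, and 0 were called. Sesn1, which encodes a stress-induced inhibitor of mTORC1 signalling, read 6.55, 7.49, 7.00 and 6.50 in RST mice, against 7.87, 7.79, 7.75 and 7.42 in control mice (log2 fold change −0.82, SE 0.29, limma adjusted p = 0.32). RST mice 1, 3 and 4 lay below all controls. The metallothionein gene Mt2 read 4.95, 5.26, 4.91 and 4.90 in RST mice, against 3.86, 3.58, 4.98 and 4.30 in control mice (log2 fold change 0.83, SE 0.32, limma adjusted p = 0.33), with control mouse 3 inside the RST range. Further targets widely used as markers of receptor activity, named after their values were seen, were Tsc22d3, Per1 and Dusp1, with log2 fold changes of −0.23 (SE 0.30), 0.14 (SE 0.35) and 0.42 (SE 0.32), none of which passed the test. They were −0.14, 0.32 and 0.57 without RST mouse 4. These 3 did not move in 1 direction.

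In the same arrays the mean level of each marker list was taken above the median of all tested probe sets on its array. That median was 4.31 in RST mouse 4 and 4.82 to 5.10 in the other mice. By that measure the levels of the B cell, T cell, erythroid and platelet markers did not overlap between the groups. Those of the NK cell, monocyte and neutrophil markers did overlap. On the deposited signals, without that subtraction, the T cell, erythroid and platelet levels overlapped as well. Over all tested genes, 67.6% had a lower mean in RST and 8.94% had groups that did not overlap, and the counts here are to be read beside these shares. All 12 tested B cell markers had lower means in RST, 8 with groups that did not overlap. Their mean level above the median of the tested probe sets was 2.16 to 2.54 in RST against 2.68 to 3.48 in control mice. All 13 tested T cell markers were also lower in mean (11 with arrays set to the same median), 3 without overlap, at 1.78 to 2.18 in RST against 2.20 to 2.57 in control mice. All 12 tested reticulocyte and erythroid markers had higher means in RST (9 with the control probe sets set equal), 7 without overlap, at 5.54 to 5.80 in RST against 4.31 to 5.22 in control mice. No single marker was called after adjustment. NK cell markers had lower means in 9 of 10 (1.65 to 2.24 in RST, 2.04 to 2.55 in control mice), monocyte markers in 6 of 9 (2.58 to 3.61 in RST, 2.74 to 4.00 in control mice), neutrophil markers in 6 of 10 (1.56 to 3.45 in RST, 1.90 to 3.69 in control mice) and platelet markers in 2 of 9, or 4 of 9 with the control probe sets set equal (5.26 to 5.45 in RST, 4.74 to 5.11 in control mice). Each cell type had markers that passed the filter, and the lowest mean of any tested marker over the 8 arrays was 4.60. Listed markers below the filter are not part of these counts. The marker lists were chosen with earlier results of these data known, so the counts describe these arrays and are no test of blood composition. The part of blood composition in the values of the receptor and its partners was not tested.

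The genes whose profile over the 8 mice was most like that of the brightest Nr3c1 probe set, by the root mean square difference of log2 values after each was centred, were Polr1e (0.084), Rap1gds1 (0.095), Csnk1g2 (0.111), Mef2a (0.111) and Trrap (0.112), where the median over 11762 genes was 0.51. Among the partners, Fkbp5 was nearest at 0.216, in place 321, and Ncoa2 was farthest at 0.489, in place 5495. Nr3c1 in turn was in place 232 for Fkbp5, whose nearest genes were St6galnac6 (0.103), Cited2 (0.105), Slc30a9 (0.113), Fmc1 (0.114) and Spns1 (0.115). All of these profiles share the 8 arrays and their differences in overall signal.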

How the data were processed

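Whole-blood RNA of 4 RST and 4 control mice was amplified, biotin-labeled and hybridized to Affymetrix Mouse Genome 430 2.0 arrays in 1 colour. The authors deposited log2 signals made by RMA, which summarizes background-corrected and normalized probes; array percentiles still differed; per the labels, Affymetrix Expression Console 1.2.0.20 and Partek were used, and the methods name GSRMA. Of 45101 probe sets, 64 were controls, 34958 had 1 gene symbol, 932 several and 9211 were not listed; symbols were updated through Entrez identifiers for 34754. The methods' presence calls were replaced by the array-median filter. Tests used limma 3.58.1 in R 4.3.3, with Benjamini-Hochberg adjustment over 25084 probe sets. The fit was checked on simulated data with independent probe sets and no array-wide shift, so that check does not cover arrays as unlevel as these. Single values had exact two-sided permutation tests over mice. The brightest probe set stood for a gene. Every probe set of the listed genes is named, with the 2 genes of smallest p in the pathway lists and the 5 nearest profiles; of the cell marker lists only counts are given. Members and lists were chosen with earlier results of these data known. The number of arrays limits the precision. Alternatives were filters, normalizations, priors, array weights, a covariate, a replicate block and left-out mice. No sequences were used.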

Additional observations from a re-analysis of the deposited data

Results flagged for a closer look

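Single mice stood apart from the other 3 of their group in 3 of the 50 groups of 4 values examined over the 25 probe sets, where chance alone flags about 1 in 20 groups. RST mouse 4 read 4.69 on the Stip1 probe set 1415909_at, where the other RST mice read 6.38, 6.73 and 6.48 and the control mice 6.87, 6.68, 6.50 and 6.47. The same mouse read 7.35 on the Ncoa2 probe set 1435233_at, where the other RST mice read 8.53, 8.75 and 8.68 and the control mice 8.28, 8.12, 8.05 and 8.36. Control mouse 3 read 7.44 on the Hsp90aa1 probe set 1426645_at, where the RST mice read 8.04, 8.46, 7.73 and 7.75 and the other control mice 8.27, 8.26 and 8.43. RST mouse 4 also had the lowest 75th percentile of signal, at 4.50, and its part in the first pair of values was not tested.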

How the results depend on the processing

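Under 19 alternatives, 0 of the receptor, chaperone and coregulator probe sets passed the threshold, and the smallest adjusted p was 0.197, with array weights. Of 360 recomputed log2 fold changes, 322 kept their direction and 38 changed it, on 10 of the 19 probe sets. The other filters, the trended and robust prior, the unmoderated analysis of variance and the replicate block left each member's log2 fold change unchanged. Their values are among the 322 and could not have changed direction. Over all tested probe sets, 35 were called with a trended and robust prior, against 0 otherwise reported. The unadjusted count of 3337 became 5539 with array weights, 2091 with the hybridization controls as covariate, 856 without control mice 1 and 2, and 1731 (without control mouse 1) to 4933 (without RST mouse 2) with 1 mouse left out. Control mouse 2 left out gave 1751. With arrays set to the same median, 10 of 19 members had lower means in RST, against 17, and 44.9% of all probe sets did, against 65.3%; the share was 51.6% with quantile normalization and 79.8% with control probe sets set equal. The median of all probe sets was then 0.064, −0.017 and −0.405 in that order of scalings. Signs changed under quantile normalization for 1421866_at (0.17), 1426645_at (0.028), 1434515_at (0.14) and 1446827_at (0.084). With arrays set to the same median they changed for 1421866_at (0.25), 1416363_at (0.14), 1426645_at (0.16), 1437497_a_at (0.024), 1434515_at (0.14), 1446827_at (0.22) and 1450458_at (0.11). Array weights changed 1421866_at (0.13), 1416363_at (0.015) and 1446827_at (0.075). The covariate changed 1453860_s_at (0.050), 1426645_at (0.14), 1437497_a_at (0.032), 1434515_at (0.31) and 1435234_at (0.054). Leaving out control mice 1 and 2 changed 1421866_at (0.048), 1453860_s_at (0.0020), 1426645_at (0.063), 1434515_at (0.31) and 1446827_at (0.047). Control probe sets set equal changed 1435233_at (−0.079). That scaling, like the one to the same median, moved every log2 fold change by the same amount. Which signs changed under them therefore depended only on the starting values. With 1 mouse left out, ranges that crossed 0 were −0.23 to 0.10 for 1421866_at, −0.23 to 0.055 for 1416363_at, −0.32 to 0.0079 for 1426645_at, −0.36 to 0.073 for 1434515_at, −0.016 to 0.45 for 1435233_at, −0.75 to 0.080 for 1435234_at and −0.26 to 0.085 for 1446827_at. The causes were not tested.

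The replicate numbers were not treated as pairs. Deviations of same-numbered mice correlated at −0.24, 0.42, 0.046 and 0.20 for numbers 1 to 4. Mice of different numbers were not compared, so these values cannot settle whether the numbers pair mice. With the replicate number as a block the unadjusted count was 4234 and 0 were called, with a smallest adjusted p of 0.325 among the members. The 6 probe sets that did not exceed the array median on any array are limited by their signal over background.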

Other observations

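The Ncoa1 probe set 1443397_at did not exceed the array median on any of the 8 arrays and so stayed out of the limma test. It is described here because of its values, without a test. It read 2.44, 1.75, 3.42 and 2.35 in RST mice, against 1.97, 1.77, 1.74 and 1.93 in control mice. RST mice 1, 3 and 4 lay above all controls and RST mouse 2 lay inside the control range.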
